A study of Homo sapiens with 18 samples.

Results

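The genes of 6 amino acid transporter families were examined in RNA Seq libraries of 2 related prostate cancer cell lines. The members were the protein-coding genes with a symbol of SLC1A, SLC3A, SLC7A, SLC36A, SLC38A or SLC43A and a number, whose counts over the 18 libraries summed to at least 50. Of 40 genes with such a symbol, 29 met this rule, beside 14484 protein-coding genes in all that reached the same total. LNCaP cells depend on androgen for growth, and C4-2 cells were derived from LNCaP and grow without it. Each line had 3 groups with 3 libraries each: scrambled siRNA (siScr) with vehicle, siScr with the synthetic androgen R1881 (1 nM), and a dual knockdown by siRNA pools against KDM1A and KDM7A, also with R1881 (1 nM). Cells were in 6-well plates, siRNA and treatment both lasted 72 h, and the serum of the medium was depleted of hormones. Dual knockdown with vehicle was not analysed here, so knockdown was seen only in the presence of R1881. In the libraries used here neither enzyme was knocked down alone, although the study examined single knockdowns by other assays. The libraries were of polyadenylated RNA from whole cultures, in which fewer expressing cells and less RNA per cell cannot be told apart. Whether the 3 libraries of a group came from separate cultures, and whether their numbers pair them across groups, was not stated for the siRNA libraries in the sources used here, so the p-values measure the spread between these libraries, which may be technical.

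Amino acids cross membranes by carriers that divide the work. Light chains of the SLC7 family are held at the cell surface by a heavy chain, SLC3A2 (CD98), and exchange one amino acid for another. SLC7A5 (LAT1) and SLC7A8 (LAT2) exchange large neutral amino acids such as leucine, and SLC7A11 (xCT) takes up cystine in return for glutamate. SLC7A1 and SLC7A2 carry arginine and lysine without a heavy chain. SLC1A1, SLC1A2 and SLC1A3 carry glutamate and aspartate, whereas SLC1A4 and SLC1A5 exchange small neutral amino acids and, for SLC1A5, glutamine. SLC38A1, SLC38A2 and SLC38A4 take up small neutral amino acids together with sodium. SLC36A1 moves amino acids with protons and is found on lysosomes, as is SLC38A9, which reports lysosomal arginine to the growth regulator mTORC1. SLC43A1 (LAT3) and SLC43A2 (LAT4) let branched-chain and aromatic amino acids pass down their gradient, and SLC43A1 is known as a gene of prostate cancer cells that responds to androgen.

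Total counts per library were between 10485096 and 20154243 in 17 libraries. The third C4-2 vehicle library had 3182604. The 3 C4-2 vehicle libraries are C4-2 by their titles but LNCaP by their cell line field, and were grouped by title. Their SLC7A5 level of 301 ± 1.96 CPM (read counts relative to the scaled total of the library, mean ± SD, n = 3) lay with the other C4-2 groups, far from the 18.8 ± 3.47 CPM of LNCaP with vehicle. KDM1A under dual knockdown was at 48.4, 52.1 and 54.05 CPM in LNCaP against 104, 108 and 113 CPM with siScr, and at 14.7, 19.9 and 14.6 against 146, 139 and 141 CPM in C4-2. KDM7A was at 27.7, 31.4 and 33.4 against 54.96, 64.9 and 59.1 CPM in LNCaP, and at 18.2, 23.9 and 21.5 against 112, 118 and 131 CPM in C4-2. Both targets were therefore lower in every knockdown library, with a log2 fold change (log2FC) of −1.05 and −0.93 in LNCaP and −3.12 and −2.51 in C4-2. All 10 prostate luminal markers reached 1 CPM in every group, and at most 2 markers of any basal, stromal, endothelial or leukocyte list did.

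Levels of different genes were compared as CPM per kilobase of exon, a scale that takes gene length into account. Of the 29 members, 19 or 20 reached 1 CPM per kilobase in the siScr groups. With vehicle, SLC38A2 had the highest level in LNCaP with 61.5 CPM per kilobase, ahead of SLC3A2 with 33.7 and SLC38A1 with 32.9. In C4-2 with vehicle, SLC7A1 with 63.5 and SLC7A5 with 63.4 CPM per kilobase stood highest and did not differ beyond their spread, followed by SLC38A2 with 48.99. With R1881, SLC38A2 still led in LNCaP with 86.9 CPM per kilobase, and SLC43A1 led in C4-2 with 104, above SLC38A2 with 86.7. The members with the fewest counts were SLC38A5, SLC3A1, SLC38A11 and SLC7A9, with 50, 56, 64 and 78 counts over all libraries. These 4 were too low for the tests, as were SLC1A2 (273 counts) in LNCaP and SLC7A13 (121 counts) in C4-2, so 24 members were tested in each line. Some of these passed the filter on low counts only through groups in which they were high. For SLC38A4 in both lines and SLC7A13 in LNCaP these were groups with R1881, where no vehicle library reached the level the filter asks for, and for SLC1A2 in C4-2 all 6 libraries with R1881 reached it but 1 of 3 with vehicle did. The 11 genes with a matching symbol that missed the rule had between 4 and 38 counts: SLC1A6, SLC1A7, SLC7A3, SLC7A4, SLC7A10, SLC7A14, SLC36A2, SLC36A3, SLC38A3, SLC38A8 and SLC43A3.

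The first comparison asked how androgen changed the transporters. A gene was counted as up- or down-regulated at an adjusted p under 0.05 in edgeR's quasi-likelihood F-test, adjusted over all genes tested. In LNCaP, R1881 up-regulated 8 of 24 members and down-regulated 10, beside 23.5% of all genes up and 23.2% down. Of these, 5 changed at least 2-fold (SLC43A1, SLC38A4 and SLC7A13 up, SLC7A2 and SLC7A5 down), beside 12.3% of all genes, where SLC38A4 and SLC7A13 entered the test only through their R1881 groups. In C4-2, 7 of 24 members were up-regulated and 8 down-regulated, beside 17.1% and 15.7% of all genes, and 5 changed at least 2-fold (SLC43A1, SLC38A4, SLC36A1 and SLC1A2 up, SLC7A7 down), beside 9.07%, where SLC38A4 and SLC1A2 entered through libraries with R1881. The members' median log2FC was −0.20 in LNCaP and −0.10 in C4-2, beside −0.042 and −0.018 for all genes tested. Of 23 members tested in both lines, 3 rose in both (SLC38A2, SLC38A4 and SLC43A1), 6 fell in both (SLC7A1, SLC7A5, SLC7A6, SLC38A7, SLC38A10 and SLC43A2), 1 moved in opposite directions (SLC36A1), and 2 passed in neither (SLC1A1 and SLC3A2). Of all genes tested in both lines, 12.8% rose in both and 9.19% fell in both. The shares of all genes that moved in opposite directions or passed in neither were not computed.

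The branched-chain carrier SLC43A1 rose in both lines. In LNCaP it was at 23.6, 24.5 and 30.8 CPM with vehicle and 111, 101 and 107 CPM with R1881, and in C4-2 at 145, 142 and 131 and 363, 373 and 363 CPM. Every R1881 library lay above every vehicle library of its line, and the C4-2 vehicle libraries lay above the LNCaP libraries with R1881. The increase was 3.99-fold in LNCaP (log2FC 1.99, SE 0.084, adjusted p = 3.17e-12) and 2.61-fold in C4-2 (log2FC 1.39, SE 0.08, adjusted p = 7.04e-09). Its relative SLC43A2, a carrier of the same amino acids, fell in both lines, from 54.5 ± 6.24 to 38.1 ± 5.76 CPM in LNCaP (log2FC −0.53, SE 0.10, adjusted p = 0.000518) and from 89.96 ± 8.72 to 58.7 ± 3.68 CPM in C4-2 (log2FC −0.63, SE 0.10, adjusted p = 0.000165).

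Within the SLC38 family, all increases with R1881 were among 3 neighbours on chromosome 12. SLC38A1, SLC38A2 and SLC38A4 lie on the same strand, with 88171 bases between the first pair and 391893 between SLC38A2 and SLC38A4. SLC38A4 was almost silent with vehicle, at 0, 0.0463 and 0 CPM in LNCaP and 0.0517, 0.172 and 0 CPM in C4-2. With R1881 it was at 7.38, 9.87 and 10.8 CPM in LNCaP and 21.7, 22.1 and 24.6 CPM in C4-2. The groups did not overlap, and the vehicle libraries held 1 count in all in LNCaP against 458 with R1881, and 4 against 1190 in C4-2. Scaled to library size, these counts gave a ratio of 476 in LNCaP (95% interval 84.9 to 18822, counting error only) and 229 in C4-2 (89.1 to 841). SLC38A4 passed the filter on low counts only through the groups with R1881, and its adjusted p was 4.68e-11 and 2.61e-11.

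SLC38A2, a glutamine and alanine carrier, was at 407, 409.96 and 400.3 CPM with vehicle and 542, 614 and 566 CPM with R1881 in LNCaP, and at 307, 312 and 352 and 598, 548 and 571 CPM in C4-2. All R1881 libraries were the higher ones (log2FC 0.48, SE 0.055, adjusted p = 1.7e-06 in LNCaP, and log2FC 0.82, SE 0.084, adjusted p = 3.38e-06 in C4-2). SLC38A1 rose in C4-2, from 336 ± 28.6 to 515 ± 6.55 CPM (log2FC 0.61, SE 0.087, adjusted p = 8.46e-05), and in LNCaP its log2FC was 0.038 (95% interval −0.078 to 0.15). The lysosomal carrier SLC38A7 fell in both lines (−0.35, adjusted p = 0.00138 in LNCaP, and −0.45, adjusted p = 0.00113 in C4-2, log2FC). SLC38A10 had a log2FC of −0.34 (adjusted p = 0.0116) and −0.33 (adjusted p = 0.0255), but its vehicle and R1881 libraries overlapped in both lines. Its call was lost with any of 2 LNCaP libraries left out (R1881 replicates 2 and 3, adjusted p up to 0.0831) and with any of 4 C4-2 libraries (vehicle replicates 1 and 2, R1881 replicates 1 and 3, up to 0.12), and in C4-2 also with the trend with GC content removed (0.464). In LNCaP, the lysosomal arginine sensor SLC38A9 and SLC38A6 also fell, by log2FC of −0.34 (adjusted p = 0.00413) and −0.48 (adjusted p = 0.00747). SLC38A6 shares 4.76% of its exonic bases with TRMT5, and its call was lost without vehicle replicate 2 or R1881 replicate 3 (adjusted p up to 0.0563).

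**Figure D1:**
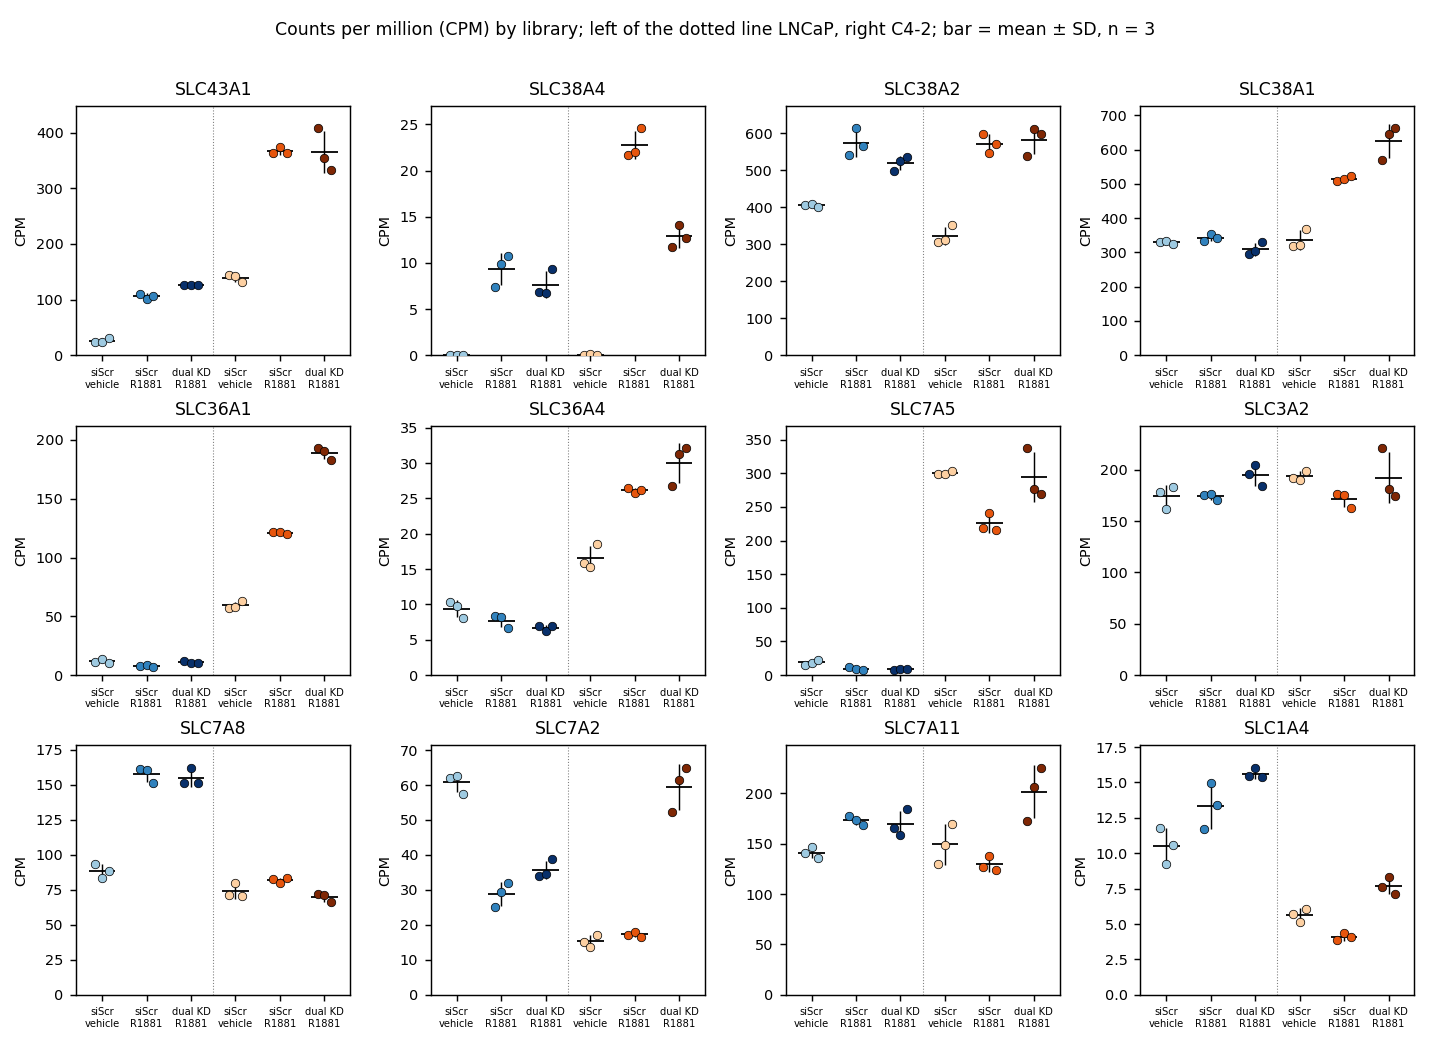
CPM (scaled counts) in each library (points) for 12 transporter genes, with mean and SD of 3 libraries, in the 6 groups. SLC38A4 is near 0 with vehicle in both lines, SLC36A1 falls with R1881 in LNCaP and rises in C4-2, and SLC7A2 is highest under dual knockdown within C4-2.

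Promoter sequences are shown for the 4 members with a RefSeq promoter that passed the test under R1881 in both lines and changed at least 2-fold in one of them. Each is the 300 bases from 250 before to 50 after the annotated start (RefSeq, GRCh38.p14), read 5′ to 3′ on the strand of the gene in lower case. SLC38A4 (minus strand, chr12:46825948-46826247) and SLC43A1 (minus strand, chr11:57515653-57515952) rose in both lines, SLC7A5 (minus strand, chr16:87869458-87869757) fell in both, and SLC36A1 (plus strand, chr5:151436796-151437095) moved in opposite directions.
SLC38A4: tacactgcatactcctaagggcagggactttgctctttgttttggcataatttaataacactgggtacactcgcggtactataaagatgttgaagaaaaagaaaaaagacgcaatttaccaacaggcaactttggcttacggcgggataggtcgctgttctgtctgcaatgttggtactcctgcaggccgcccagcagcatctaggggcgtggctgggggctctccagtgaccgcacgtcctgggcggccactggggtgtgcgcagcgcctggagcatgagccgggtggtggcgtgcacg
SLC43A1: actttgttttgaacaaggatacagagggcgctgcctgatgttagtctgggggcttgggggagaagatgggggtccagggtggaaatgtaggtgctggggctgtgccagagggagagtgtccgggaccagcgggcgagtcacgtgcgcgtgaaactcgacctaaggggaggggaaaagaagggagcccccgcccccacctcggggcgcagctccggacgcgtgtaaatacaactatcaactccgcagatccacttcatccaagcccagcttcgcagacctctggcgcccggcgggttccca
SLC36A1: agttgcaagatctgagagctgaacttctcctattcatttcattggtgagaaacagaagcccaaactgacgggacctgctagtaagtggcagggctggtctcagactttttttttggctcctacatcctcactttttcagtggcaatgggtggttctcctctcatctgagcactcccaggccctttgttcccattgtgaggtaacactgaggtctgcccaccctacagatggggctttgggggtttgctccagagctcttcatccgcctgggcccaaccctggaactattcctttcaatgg
SLC7A5: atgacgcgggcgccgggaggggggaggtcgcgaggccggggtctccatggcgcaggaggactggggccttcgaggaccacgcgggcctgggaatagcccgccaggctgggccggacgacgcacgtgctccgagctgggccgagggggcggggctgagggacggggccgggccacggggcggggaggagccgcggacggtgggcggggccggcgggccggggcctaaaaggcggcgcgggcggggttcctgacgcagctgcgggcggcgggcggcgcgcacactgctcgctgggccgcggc
Promoters were matched for 24 of the 29 members, in 45 windows since some genes have several starts. SLC7A2 and SLC7A11 were among the members without a match. The core of the amino acid response element (TGATGNAAT, either strand) is the site through which amino acid shortage switches on genes. It was in 0 of these 45 windows, the 4 shown included, and in 348 of 35114 windows of all genes (0.991%). At so low a share, 45 windows are too few to tell the members from all genes. GC content was 80.3% in the SLC7A5 promoter and 51% in that of SLC36A1, beside a median of 58.7% over all windows.

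The proton-coupled carriers of the SLC36 family differed between the lines under R1881. SLC36A1 was at 10.8, 13.4 and 10.4 CPM with vehicle and 7.87, 8.70 and 7.06 CPM with R1881 in LNCaP. In C4-2 it was at 57.3, 58.05 and 62.6 and 121, 122 and 120.3 CPM. All R1881 libraries lay below the vehicle libraries in LNCaP and above them in C4-2, and the groups overlapped in neither line (log2FC −0.58, SE 0.14, adjusted p = 0.00215 in LNCaP, and log2FC 1.04, SE 0.073, adjusted p = 6.01e-08 in C4-2). SLC36A4 was at 10.4, 9.72 and 8.06 CPM with vehicle and 8.30, 8.26 and 6.60 CPM with R1881 in LNCaP, and at 15.8, 15.3 and 18.6 and 26.5, 25.8 and 26.2 CPM in C4-2. It rose in C4-2 (log2FC 0.69, SE 0.11, adjusted p = 0.000343), while in LNCaP the groups overlapped and the log2FC of −0.30 did not pass (adjusted p = 0.103).

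The heavy chain SLC3A2 passed no test. Its libraries were at 178, 162 and 184 CPM with vehicle and 175, 177 and 170.2 CPM with R1881 in LNCaP, and at 192, 191 and 199 and 176, 175 and 163 CPM in C4-2. The log2FC of −0.022 in LNCaP (95% interval −0.15 to 0.11) and −0.18 in C4-2 (−0.36 to 0.0017) did not pass, although the C4-2 groups did not overlap and a fit of these 2 groups alone gave an adjusted p of 0.0469.

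Among its light chains, the leucine exchangers SLC7A5 and SLC7A8 moved apart in LNCaP under R1881. SLC7A5 was at 15.4, 18.7 and 22.4 CPM with vehicle and 11.3, 9.51 and 6.83 CPM with R1881 in LNCaP, and at 299.7, 299.7 and 303 and 219, 241 and 216 CPM in C4-2. It was lower in every R1881 library of its line (log2FC −1.05, SE 0.17, adjusted p = 5.74e-05 in LNCaP, and log2FC −0.42, SE 0.085, adjusted p = 0.00159 in C4-2). SLC7A8 was at 93.6, 83.6 and 88.6 CPM with vehicle and 161, 160.2 and 151 CPM with R1881 in LNCaP, where it rose (log2FC 0.81, SE 0.064, adjusted p = 1.37e-08). In C4-2 its log2FC was 0.14 (adjusted p = 0.186, or 0.0176 with the GC trend removed). The cystine carrier SLC7A11 was at 141, 147 and 136 CPM with vehicle and 177, 174 and 168 CPM with R1881 in LNCaP, with all R1881 libraries above (log2FC 0.28, SE 0.064, adjusted p = 0.00213). In C4-2 it was at 129, 148 and 169.96 and 127, 138 and 123 CPM, which overlapped (log2FC −0.20, SE 0.12, adjusted p = 0.207, or adjusted p = 0.00901 with the GC trend removed). SLC7A11 shares 8.97% of its exonic bases with the antisense gene SLC7A11-AS1.

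SLC7A6 and SLC7A7 swap arginine or lysine for neutral amino acids. SLC7A6 fell in both lines (−0.43, adjusted p = 0.00125 in LNCaP, and −0.55, adjusted p = 0.00332 in C4-2, log2FC). It shares 44.4% of its exonic bases with SLC7A6OS on the opposite strand, and reads of overlapping genes could not be told apart in counts made without strand. SLC7A7 was at 2.17, 3.49 and 2.90 CPM with vehicle and 1.92, 0.898 and 0.550 CPM with R1881 in C4-2, where it fell (log2FC −1.32, SE 0.41, adjusted p = 0.022). That call was lost without vehicle replicate 2, R1881 replicate 2 or R1881 replicate 3 (adjusted p up to 0.123). In LNCaP it was at 1.05, 1.44 and 0.823 and 0.656, 1.54 and 1.38 CPM, with overlapping groups. SLC7A13, a light chain best known from kidney, was at 0.0873, 0.185 and 0.219 CPM with vehicle and 0.874, 1.17 and 0.631 CPM with R1881 in LNCaP, from 9 and 43 counts. Its log2FC of 2.28 (SE 0.49, adjusted p = 0.00116) stands beside the filter above, which it met only in libraries with R1881. In C4-2 it was at 0.414, 0.229 and 0.290 and 0.0549, 0.337 and 0.122 CPM, from 13 and 9 counts.

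Summed per kilobase, the light chains known to pair with SLC3A2 (SLC7A5, SLC7A6, SLC7A7, SLC7A8, SLC7A10 and SLC7A11) were at 37.6 ± 0.316 CPM per kilobase with vehicle and 49.4 ± 1.52 with R1881 in LNCaP (mean ± SD, n = 3). In C4-2 the sums were 96.9 ± 2.23 and 78.5 ± 3.67 CPM per kilobase. The ratio of this sum to SLC3A2 went from 1.12 ± 0.0684 to 1.47 ± 0.0245 in LNCaP and from 2.59 ± 0.0701 to 2.37 ± 0.0993 in C4-2. SLC7A5 made up 10.5 ± 1.86% of the sum with vehicle and 3.91 ± 0.848% with R1881 in LNCaP, against 65.4 ± 1.37% and 60.5 ± 0.771% in C4-2. SLC7A8 made up 39.3 ± 2.30% and 53.2 ± 0.561% in LNCaP, against 12.7 ± 0.809% and 17.5 ± 1.12% in C4-2. The main light chain transcripts were thus SLC7A8 and SLC7A11 in LNCaP and SLC7A5 in C4-2.

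**Figure D2:**
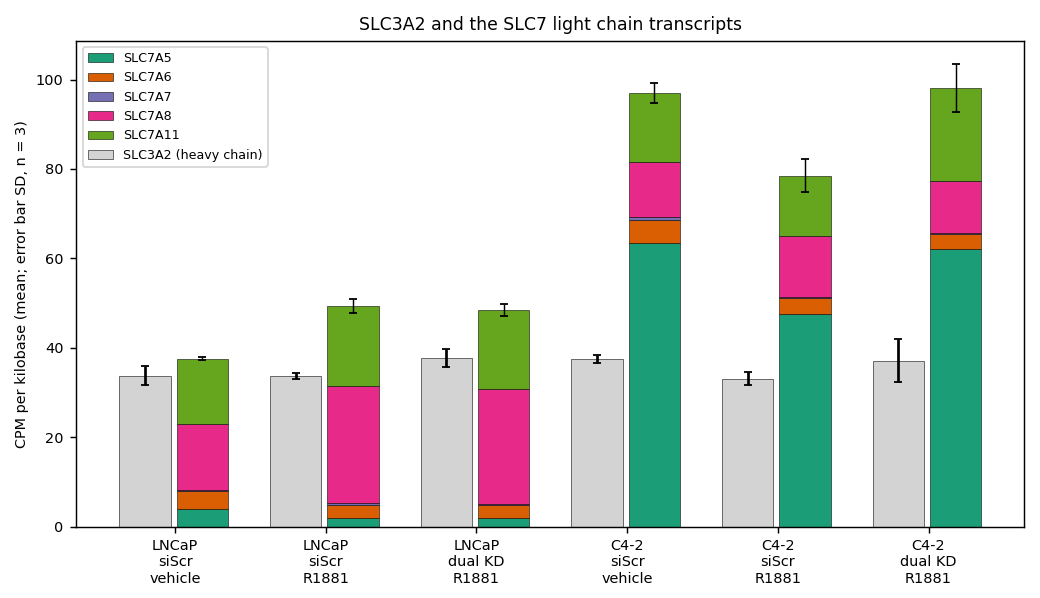
Mean transcript level in CPM per kilobase of the heavy chain SLC3A2 (grey) and, stacked, of its SLC7 light chains in the 6 groups, with SD of 3 libraries on SLC3A2 and on the sum. SLC3A2 is nearly level, while SLC7A5 fills most of the C4-2 bars and little of the LNCaP bars; SLC7A10, with 14 counts in all, is not drawn.

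Of the cationic carriers, SLC7A1 fell in both lines and SLC7A2 in LNCaP. SLC7A1 was at 159, 160.4 and 151 CPM with vehicle and 149, 133 and 140.5 CPM with R1881 in LNCaP, and at 461, 505 and 499 and 377, 432 and 399.9 CPM in C4-2. The groups did not overlap, with small decreases in both lines (−0.17, adjusted p = 0.0437, and −0.28, adjusted p = 0.0102, log2FC). The call in LNCaP was lost with any of 7 of the 9 libraries left out (adjusted p up to 0.225) and with DESeq2 (0.0666), and that in C4-2 without R1881 replicate 1 (0.0568). SLC7A2 was at 62.1, 62.6 and 57.5 CPM with vehicle and 25.1, 29.3 and 31.9 CPM with R1881 in LNCaP, where it fell (log2FC −1.10, SE 0.088, adjusted p = 1.99e-08). In C4-2 it was at 15.2, 13.6 and 17.1 and 17.2, 18.1 and 16.5 CPM, with a log2FC of 0.21 (adjusted p = 0.232).

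In the SLC1 family, the glutamine carrier SLC1A5 was at 62.2, 51.4 and 72.4 CPM with vehicle and 89.00, 79.2 and 81.5 CPM with R1881 in LNCaP, where all R1881 libraries were higher (log2FC 0.41, SE 0.10, adjusted p = 0.00202). In C4-2 it was at 143, 144 and 136 and 125, 139 and 126 CPM (log2FC −0.13, SE 0.089, adjusted p = 0.31), with overlapping groups. SLC1A5 shares 23.4% of its exonic bases with AC008622.2 on the opposite strand. SLC1A4 was at 11.8, 9.26 and 10.6 and 11.7, 14.99 and 13.4 CPM in LNCaP, where the groups overlapped slightly (log2FC 0.33, SE 0.12, adjusted p = 0.0304) and the call was lost with any of 4 libraries left out (vehicle and R1881 replicates 2 and 3, adjusted p up to 0.122). In C4-2 it was at 5.74, 5.15 and 6.09 and 3.84, 4.38 and 4.09 CPM, with no overlap but no call (log2FC −0.44, SE 0.16, adjusted p = 0.052), or an adjusted p of 0.0227 in the fit of all 18 libraries.

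The glutamate carriers were low. SLC1A1 was at 9.08, 11.02 and 9.10 CPM with vehicle and 7.70, 7.83 and 9.87 CPM with R1881 in LNCaP, and at 2.74, 3.32 and 2.90 and 3.46, 4.21 and 4.46 CPM in C4-2, and passed in neither line (adjusted p = 0.206 and 0.178). SLC1A2 was at 0.672, 0.400 and 0.290 CPM with vehicle and 1.70, 1.07 and 1.89 CPM with R1881 in C4-2, from 21 and 81 counts, with no overlap (log2FC 1.59, SE 0.36, adjusted p = 0.00388), and met the filter mainly through libraries with R1881. It was at 0.175, 0.232 and 0.110 and 0.328, 0.585 and 0.517 CPM in LNCaP, too low to test. SLC1A3 was at 7.80, 7.83 and 9.57 and 6.04, 6.06 and 6.48 CPM in C4-2 (log2FC −0.40, SE 0.14, adjusted p = 0.0423), a call lost with any of 8 of the 9 libraries left out (adjusted p up to 0.114) and with DESeq2 (0.103). In LNCaP it was at 0.785, 2.92 and 3.02 and 1.64, 0.951 and 1.09 CPM, with overlapping groups (log2FC −0.92, SE 0.37, adjusted p = 0.0531).

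**Figure D3:**
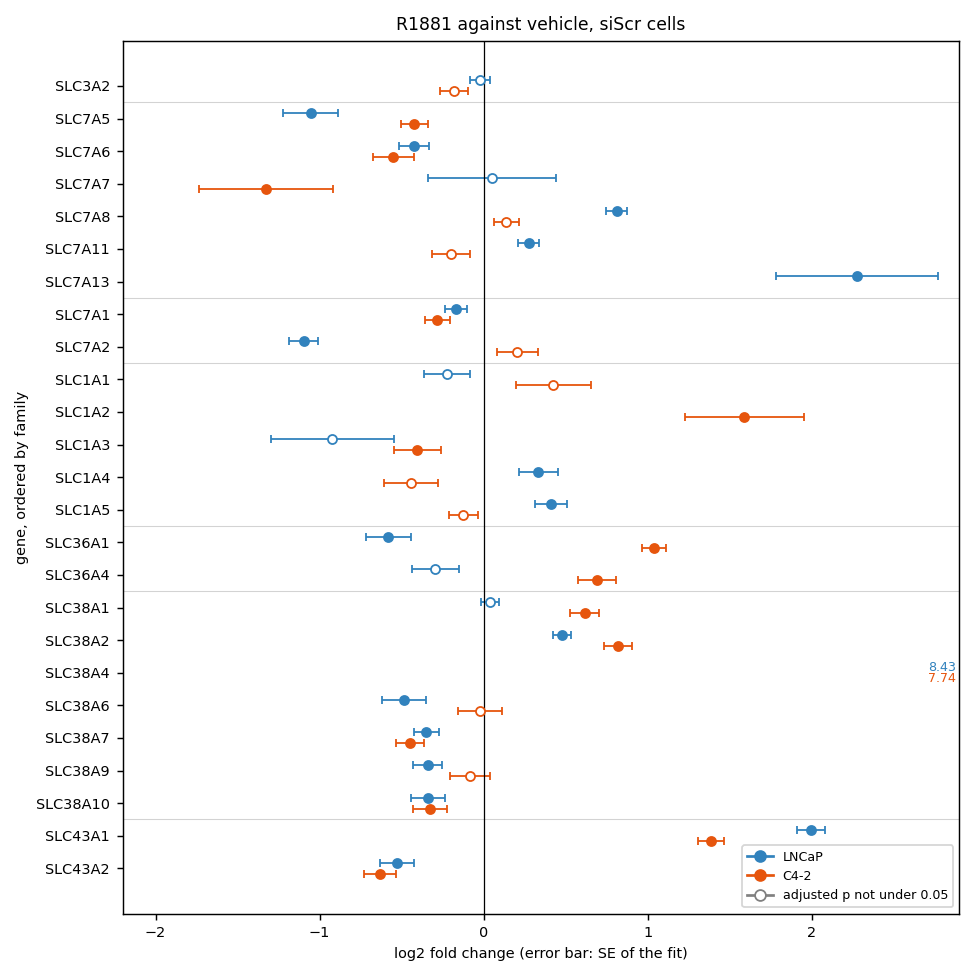
log2 fold change of R1881 against vehicle in siScr cells, with SE, for each transporter gene tested in LNCaP (blue) and C4-2 (orange); filled points passed the test. SLC38A4 lies beyond the axis and is written as its fitted value, which depends on near-zero vehicle counts; SLC43A1 is far right in both lines, and SLC36A1 lies on opposite sides of 0.

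The interaction of line and R1881, fitted in all 18 libraries, tested whether the response differed. Of 25 members tested, the response in C4-2 was higher for 6 and lower for 6, beside 6.05% and 7.95% of all genes. The higher ones were SLC36A1 (difference of log2FC 1.61, adjusted p = 1.89e-08), SLC7A2 (1.29, adjusted p = 2.36e-06), SLC36A4 (0.97, adjusted p = 0.00035), SLC7A5 (0.63, adjusted p = 0.0298), SLC38A1 (0.56, adjusted p = 0.000293) and SLC38A2 (0.33, adjusted p = 0.0232). SLC36A1 and SLC36A4 were all the SLC36 members tested. The lower ones were SLC7A13 (−3.17, adjusted p = 0.0146), SLC1A4 (−0.78, adjusted p = 0.00635), SLC7A8 (−0.69, adjusted p = 2.27e-05), SLC43A1 (−0.62, adjusted p = 0.000985), SLC1A5 (−0.55, adjusted p = 0.011) and SLC7A11 (−0.49, adjusted p = 0.0163). SLC7A13 met the filter of the 18 libraries only in 5 LNCaP libraries with R1881 (43 counts with siScr and 37 under knockdown, against 9 to 13 in each other group) and had to be higher there to be tested. The calls on SLC38A2 and SLC7A5 were each lost with any of 7 of the 18 libraries left out (adjusted p up to 0.0769 and 0.127). That on SLC7A13 was lost without LNCaP R1881 replicate 2, C4-2 vehicle replicate 1 or C4-2 R1881 replicates 1 or 3 (up to 0.112), and that on SLC7A11 without C4-2 R1881 replicates 1 or 3 (up to 0.0614). With every library thinned to the counts of the smallest, 7 members passed, and SLC1A4 (0.254), SLC1A5 (0.106), SLC7A5 (0.123) and SLC36A4 (0.0566, all adjusted p) did not, while SLC7A13 became too low to test.

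The lines were then compared with each other. With vehicle, 13 of 25 members were higher in C4-2 than in LNCaP and 6 lower, beside 29.4% and 29.5% of all genes. At least 2-fold, 8 were higher and 2 lower, beside 24.2% of all genes in either direction. With R1881, 14 were higher and 7 lower, beside 28.6% and 29.7%, and 8 were higher and 3 lower at least 2-fold, beside 23.8%. The members' median log2FC of C4-2 against LNCaP was 0.48 with vehicle and 0.37 with R1881, beside −0.014 and −0.014 for all genes. In both conditions 12 members were higher and 5 lower, beside 21.8% and 21.9% of all genes. These counts include SLC1A2 among the higher in both conditions, which met the filter through 7 C4-2 libraries and 1 of LNCaP. SLC7A13, among the lower with R1881, met it only in LNCaP libraries with R1881. For both genes the filter favoured the direction found. Each line stands for itself alone, so the state of the disease it models and the line's own history cannot be told apart.

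SLC7A5 had the widest gap, 15.8-fold higher in C4-2 with vehicle (log2FC 3.98, SE 0.14, adjusted p = 4.96e-16) and 24.4-fold with R1881 (log2FC 4.61, SE 0.14, adjusted p = 1.09e-16). SLC36A1 was 5.06-fold higher with vehicle (log2FC 2.34, SE 0.093, adjusted p = 5.44e-15) and 15.5-fold with R1881 (log2FC 3.95, SE 0.10, adjusted p = 1.66e-18). No library of one line reached the other for either gene. SLC43A1 was 5.29-fold and 3.44-fold higher in C4-2, the arginine carrier SLC7A1 3.12-fold and 2.86-fold, the glutamine carrier SLC1A5 2.28-fold and 1.56-fold, and the glutamate carrier SLC1A3 3.47-fold and 4.95-fold, with vehicle and R1881 respectively.

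The members lower in C4-2 in both conditions were SLC1A1 (log2FC −1.70 with vehicle and −1.07 with R1881), SLC1A4 (−0.91 and −1.70), SLC7A2 (−2.03 and −0.74), SLC7A8 (−0.25 and −0.94) and SLC38A9 (−0.61 and −0.36). Also higher in C4-2 in both conditions were SLC36A4 (0.79 and 1.76), SLC43A2 (0.74 and 0.62), SLC38A7 (0.48 and 0.37), SLC38A6 (0.38 and 0.83) and SLC7A6 (0.42 and 0.27). The call on SLC7A6 with R1881 was lost with any of 11 of the 18 libraries left out (adjusted p up to 0.226), and that on SLC38A6 with vehicle without LNCaP vehicle replicate 1 (0.0988). With R1881, thinning to equal counts ended the calls on SLC7A6 (0.698), SLC38A6 (0.0688), SLC38A7 (0.0686) and SLC38A9 (0.282, all adjusted p).

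SLC1A2 was higher in C4-2 with vehicle (1.501, adjusted p = 0.0109) and R1881 (1.71, adjusted p = 0.000274), the first lost without LNCaP vehicle replicate 3 or C4-2 vehicle replicate 1 (up to 0.181). SLC1A2 met the filter of the 18 libraries through 7 C4-2 libraries and 1 of LNCaP. SLC7A7 was higher with vehicle alone (1.35, adjusted p = 0.00898, lost without C4-2 vehicle replicate 2 with 0.0677) and SLC38A2 lower with vehicle alone (−0.33, adjusted p = 0.000249, or 0.0635 with the GC trend removed). With R1881, SLC38A1 and SLC38A4 were higher (0.59, adjusted p = 1.9e-07, and 1.29, adjusted p = 5.61e-07), and SLC7A11 and SLC7A13 lower (−0.42, adjusted p = 0.000539, and −2.31, adjusted p = 0.000935), SLC7A13 with the same limit as above. SLC3A2 and SLC38A10 passed in neither condition, with SLC3A2 at a log2FC of 0.15 (95% interval −0.011 to 0.31) and −0.021 (−0.18 to 0.14).

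**Figure D4:**
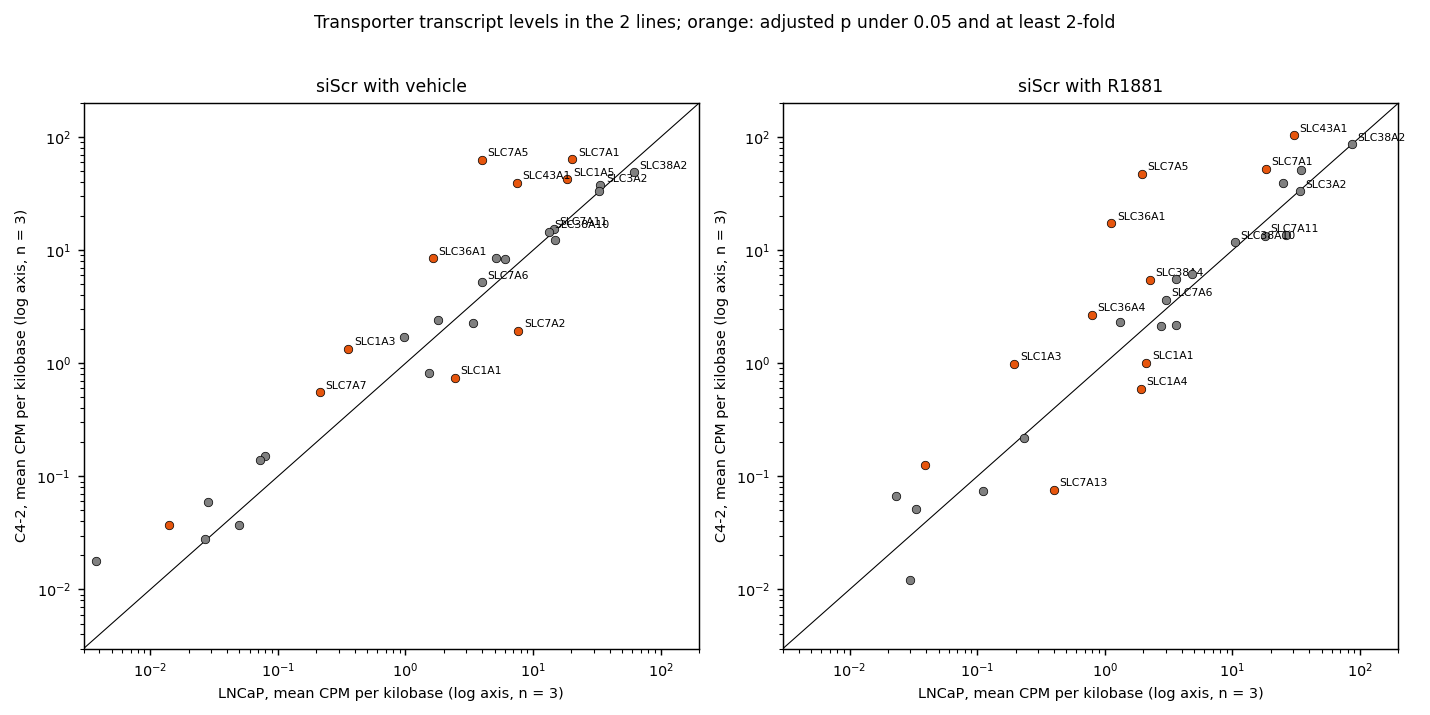
Mean level of each transporter gene in CPM per kilobase in C4-2 against LNCaP (log axes, n = 3 libraries a point) for siScr cells with vehicle (left) and R1881 (right). Orange genes passed the test and differed at least 2-fold; SLC7A5, SLC36A1 and SLC43A1 lie far above the line of equal levels in both panels, and SLC1A1 lies below it.

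The last comparison asked what dual knockdown of KDM1A and KDM7A changed in cells with R1881. In LNCaP, 5 of 24 members rose and 0 fell by edgeR, beside 8.27% and 5.89% of all genes. DESeq2 gave 5 members up and 1 down, beside 8.61% and 8.25% of all genes. At an unadjusted p under 0.05 edgeR gave 7 up and 2 down, beside 15.9% and 13.3%. By edgeR 0 members changed 2-fold, also at an unadjusted p under 0.05 and with DESeq2, beside 0.286% of all genes. In C4-2, 8 of 24 members rose and 4 fell, beside 12.7% and 10.8%. At least 2-fold, 1 rose and 0 fell, beside 3.94% of all genes in either direction. The members' median log2FC was 0.026 in LNCaP and 0.18 in C4-2, beside 0.00098 and 0.0055 for all genes. SLC1A5, SLC7A2 and SLC36A1 rose in both lines. Of all genes tested in both lines, 2.22% rose in both and 2.34% fell in both. The siScr libraries with R1881 are the control here and the treated group above, so directions under knockdown and under R1881 share them.

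SLC7A2 was the member with the 2-fold change. Under dual knockdown it was at 52.2, 61.4 and 64.9 CPM in C4-2, against 17.2, 18.1 and 16.5 CPM with siScr, a 3.43-fold increase (log2FC 1.78, SE 0.12, adjusted p = 3.88e-07). In LNCaP it was at 33.9, 34.7 and 38.7 CPM, against 25.1, 29.3 and 31.9 CPM with siScr (log2FC 0.33, SE 0.09, adjusted p = 0.0219). The knockdown libraries lay above the siScr libraries in both lines. SLC36A1 was at 193, 191 and 183 CPM in C4-2, above all siScr libraries (log2FC 0.63, SE 0.069, adjusted p = 2.18e-05), and at 11.9, 9.88 and 10.3 CPM in LNCaP (log2FC 0.46, SE 0.14, adjusted p = 0.0335). SLC1A5 was at 194, 155 and 154 CPM in C4-2 (log2FC 0.36, SE 0.087, adjusted p = 0.00828) and 105, 101 and 103 CPM in LNCaP (log2FC 0.33, SE 0.093, adjusted p = 0.0294), with no overlap in either line. The LNCaP call on SLC1A5 was lost with the trend with GC content removed (log2FC 0.13, adjusted p = 0.317) and in the fit of all 18 libraries (adjusted p = 0.0643), and that on SLC36A1 with the GC trend removed (log2FC 0.42, adjusted p = 0.0723). The C4-2 call on SLC1A5 was lost without siScr R1881 replicate 3 (adjusted p = 0.0525).

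In C4-2, SLC1A3, SLC1A4, SLC7A5, SLC7A11 and SLC38A1 also rose under knockdown. SLC1A4 was at 7.59, 8.33 and 7.16 CPM against 3.84, 4.38 and 4.09 CPM with siScr (log2FC 0.90, SE 0.16, adjusted p = 0.000863), and SLC1A3 at 10.9, 12.1 and 10.5 against 6.04, 6.06 and 6.48 CPM (log2FC 0.84, SE 0.13, adjusted p = 0.000475, or 0.0504 in libraries thinned to equal counts). SLC7A11 was at 173, 207 and 225 against 127, 138 and 123 CPM (log2FC 0.64, SE 0.11, adjusted p = 0.00112), and SLC7A5 at 337, 276 and 270.03 against 219, 241 and 216 CPM (log2FC 0.38, SE 0.085, adjusted p = 0.00489). All knockdown libraries of these 4 genes lay above the siScr libraries. SLC38A1 rose from 515 ± 6.55 to 625 ± 49.8 CPM (log2FC 0.28, SE 0.086, adjusted p = 0.0319), a call lost with any of 5 libraries left out (each siScr R1881 replicate, and knockdown replicates 2 and 3, adjusted p up to 0.126).

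The 4 members that fell in C4-2 were SLC38A4, SLC1A1, SLC43A2 and SLC7A8. SLC38A4 was at 11.8, 14.1 and 12.7 CPM against 21.7, 22.1 and 24.6 CPM with siScr, still far above the vehicle libraries (log2FC −0.83, SE 0.13, adjusted p = 0.000402). SLC1A1 was at 2.51, 1.53 and 2.12 against 3.46, 4.21 and 4.46 CPM (log2FC −0.98, SE 0.23, adjusted p = 0.00608), and SLC43A2 went from 58.7 ± 3.68 to 44.01 ± 5.46 CPM (log2FC −0.42, SE 0.10, adjusted p = 0.0058). SLC7A8 had a log2FC of −0.23 (adjusted p = 0.0353), lost with any of 6 of the 9 libraries left out (adjusted p up to 0.127). SLC43A1, which had the highest level per kilobase with R1881 in C4-2, was at 408, 355 and 334 CPM against 363, 373 and 363 CPM, with overlapping groups (log2FC −0.011, SE 0.077, adjusted p = 0.937, 95% interval −0.18 to 0.15).

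In LNCaP, the other increases were those of SLC43A1 (log2FC 0.27, SE 0.077, adjusted p = 0.0302) and SLC38A10 (log2FC 0.32, SE 0.10, adjusted p = 0.0474). With the GC trend removed these log2FC were 0.041 (adjusted p = 0.77) and 0.0065 (0.964), and in the fit of all 18 libraries their adjusted p was 0.07 and 0.106. SLC43A1 was at 126, 127 and 127 CPM under knockdown, above all siScr libraries. All 5 LNCaP calls were lost when certain single libraries were left out. No member passed without siScr R1881 replicate 2, knockdown replicate 2 or knockdown replicate 3. Without siScr R1881 replicate 3 or knockdown replicate 1, 1 member (SLC7A2) passed. Calls over all genes fell too, from 1420 up and 1011 down. They were 510 and 329 without siScr R1881 replicate 2, and 544 and 296 without knockdown replicate 2. Without knockdown replicate 3 they were 1065 and 663. Without siScr R1881 replicate 3 they were 579 and 378, and without knockdown replicate 1 they were 589 and 329. With the trend of each library with GC content removed 1 member passed (SLC7A2), and 1 in the fit of all 18 libraries (SLC36A1). For SLC3A2 the log2FC was 0.18 in LNCaP (adjusted p = 0.0597, 95% interval 0.051 to 0.31, or adjusted p = 0.0375 in a fit of these 2 groups alone) and 0.16 in C4-2 (−0.021 to 0.34). Its knockdown libraries were at 196, 205 and 184 CPM in LNCaP and 221, 181 and 175 CPM in C4-2. SLC38A2 was at 498, 524 and 535 CPM and 539.8, 612 and 597 CPM, with no call in either line (−0.12, adjusted p = 0.142, and 0.023, adjusted p = 0.879).

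The light chain sum under knockdown was 48.5 ± 1.26 CPM per kilobase in LNCaP and 98.2 ± 5.33 in C4-2 (mean ± SD, n = 3). SLC7A5 made up 63.1 ± 4.42% of it in C4-2 and SLC7A11 21.4 ± 3.83%, against 60.5 ± 0.771% and 17.1 ± 0.233% with siScr and R1881.

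**Figure D5:**
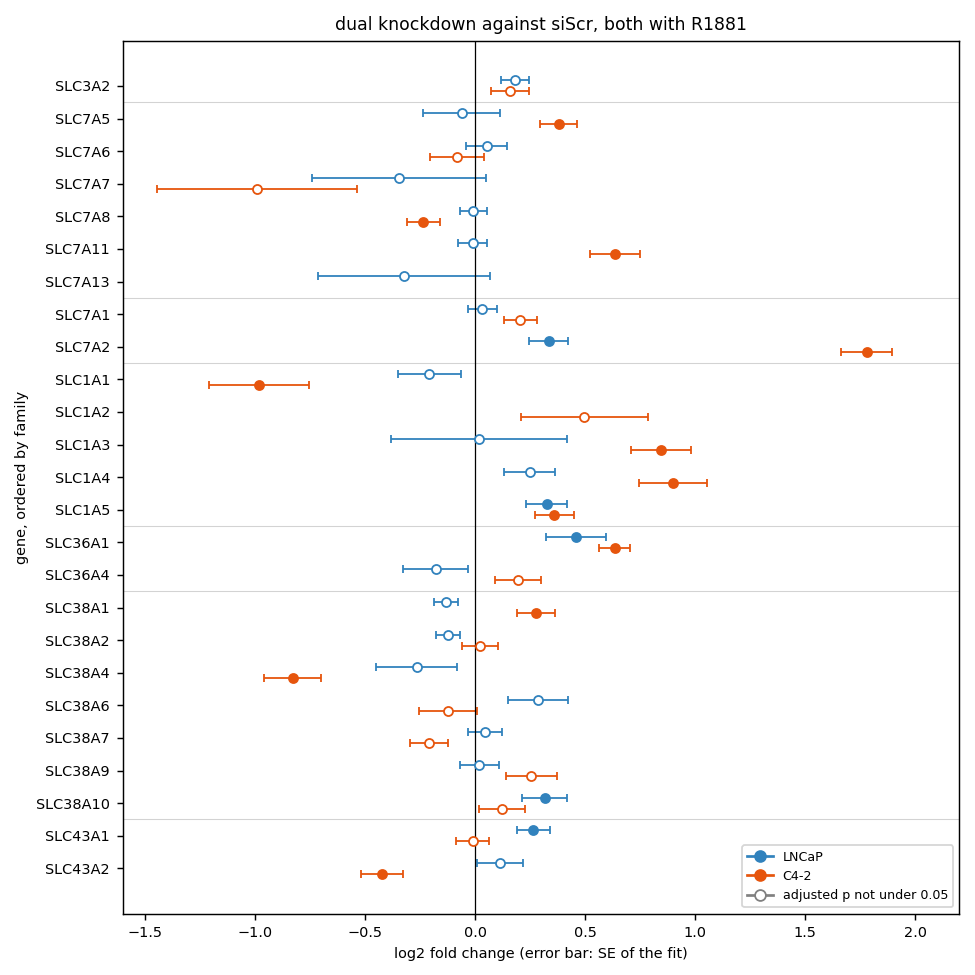
log2 fold change of dual knockdown against siScr, both with R1881, with SE, for each transporter gene tested in LNCaP (blue) and C4-2 (orange); filled points passed the test. SLC7A2 in C4-2 stands apart at 1.78, and the LNCaP points lie closer to 0.

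The response to knockdown was higher in C4-2 than in LNCaP for 4 of 25 members and lower for 1, beside 6.97% and 3.88% of all genes. These were SLC7A2 (difference of log2FC 1.47, adjusted p = 1.2e-06), SLC1A4 (0.68, adjusted p = 0.0164), SLC7A11 (0.67, adjusted p = 0.00209) and SLC38A1 (0.43, adjusted p = 0.00552), and in the other direction SLC43A2 (−0.51, adjusted p = 0.0344). The call on SLC43A2 was lost with any of 9 of the 18 libraries left out (adjusted p up to 0.108) and that on SLC1A4 without C4-2 knockdown replicate 2 (0.0521). Between 3 and 8 members passed with single libraries left out, the fewest without C4-2 knockdown replicate 2 and the most without replicate 1. KDM1A and KDM7A were also lowered further in C4-2, by a difference of log2FC of −2.04 and −1.56, and the part of this in the members' differences was not tested.

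Genes that work with the transporters were described by the same fits, and the percents in brackets are the shares of all genes that rose and fell in the same comparison. Of 25 genes of the amino acid starvation response, which ATF4 switches on, dual knockdown raised 11 and lowered 1 in LNCaP (all genes 8.27% and 5.89%), and raised 11 and lowered 1 in C4-2 (all genes 12.7% and 10.8%). The list's median log2FC was 0.13 and 0.31, beside 0.00098 and 0.0055 over all genes. In C4-2, ATF4 rose by 0.73 (adjusted p = 2.71e-05), the asparagine synthetase ASNS by 0.61 (adjusted p = 0.000322) and the serine enzyme PSAT1 by 0.44 (adjusted p = 0.000803), all as log2FC, whereas VLDLR fell by 0.79 (adjusted p = 8.73e-05). In LNCaP, the translation inhibitor EIF4EBP1 rose by 0.64 (adjusted p = 0.00163), the mTORC1 inhibitor DDIT4 by 0.56 (adjusted p = 0.00364) and the serine enzyme SHMT2 by 0.36 (adjusted p = 0.00318). ASNS was level there, at 142 ± 4.21 CPM with siScr and 143 ± 9.71 under knockdown, as was PSAT1 (201 ± 12.5 and 203 ± 12.0). By the interaction test the knockdown response was higher in C4-2 for 5 of the 25 and lower for 0 (all genes 6.97% and 3.88%). Among the 5 were ASNS (0.60, adjusted p = 0.00128), ATF4 (0.49, adjusted p = 0.00336) and PSAT1 (0.44, adjusted p = 0.00405). The LNCaP knockdown calls of this and the other lists come from the fit without GC trend removal. With that trend removed, LNCaP knockdown calls over all genes fell from 1420 up and 1011 down to 510 and 491. R1881 raised 9 and lowered 9 of the 25 in LNCaP (all genes 23.5% and 23.2%) and raised 3 and lowered 9 in C4-2 (all genes 17.1% and 15.7%). PHGDH, the first enzyme of serine synthesis, was at a log2FC of −0.62 (adjusted p = 3.95e-06) in LNCaP and −0.92 (adjusted p = 1.33e-06) in C4-2.

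Among 32 tested enzymes of amino acid metabolism, R1881 raised 19 and lowered 6 in LNCaP (all genes 23.5% and 23.2%) and raised 13 and lowered 7 in C4-2 (all genes 17.1% and 15.7%). The list's median log2FC was 0.29 and 0.11, beside −0.042 and −0.018 over all genes. The glutamate dehydrogenase GLUD1 rose in LNCaP (1.56, adjusted p = 2.13e-12) and C4-2 (0.97, adjusted p = 2.59e-07), and the branched-chain transaminase BCAT1 fell in C4-2 (−1.21, adjusted p = 7.02e-06). Under dual knockdown 6 rose and 2 fell in LNCaP (all genes 8.27% and 5.89%), and 7 rose and 3 fell in C4-2 (all genes 12.7% and 10.8%), with BCAT1 (1.11, adjusted p = 4.04e-05) and the glutathione enzyme GCLC (0.51, adjusted p = 0.000185) among the increases.

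Of 35 genes of amino acid sensing by mTORC1, R1881 raised 13 and lowered 6 in LNCaP (all genes 23.5% and 23.2%) and raised 9 and lowered 3 in C4-2 (all genes 17.1% and 15.7%). The list's median log2FC was 0.012 and 0.069, beside −0.042 and −0.018 over all genes. MTOR itself rose in LNCaP (1.10, adjusted p = 7.3e-11) and C4-2 (0.75, adjusted p = 5.4e-06), and the mTORC1 inhibitor SESN3 fell in both (−1.58, adjusted p = 9.97e-13, and −1.53, adjusted p = 2.36e-08). Its relative SESN1 fell in LNCaP (−1.50, adjusted p = 2.09e-12), but in C4-2 was at 42.1 ± 0.399 CPM with vehicle and 43.6 ± 2.73 CPM with R1881. By the interaction test the SESN1 responses differed by 1.53 (adjusted p = 1.85e-10). Dual knockdown raised 7 and lowered 5 in LNCaP (all genes 8.27% and 5.89%) and raised 5 and lowered 8 in C4-2 (all genes 12.7% and 10.8%).

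Of 20 tested carriers of amino acids or small peptides in other families, R1881 raised 7 and lowered 5 in LNCaP (all genes 23.5% and 23.2%) and raised 4 and lowered 5 in C4-2 (all genes 17.1% and 15.7%). The peptide carrier SLC15A2 rose in LNCaP (3.58, adjusted p = 4.24e-13) and C4-2 (2.97, adjusted p = 4.09e-09), and the proline carrier SLC6A20 fell in both to near 0, from a mean of 3.50 ± 0.448 to 0.158 ± 0.188 CPM in LNCaP and from 2.37 ± 0.0420 to 0.136 ± 0.120 CPM in C4-2. The list's median log2FC was −0.067 and 0.14, beside −0.042 and −0.018 over all genes. Dual knockdown raised 3 in LNCaP (all genes 8.27%) and raised 8 and lowered 3 in C4-2 (all genes 12.7% and 10.8%), where the mitochondrial serine carrier SFXN1 rose (0.79, adjusted p = 1.37e-05).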

How the data were processed

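The deposited files held raw read counts per gene, 1 file per library, which the authors made with featureCounts (version 1.5.0-p1) from paired-end reads aligned with STAR. They counted fragments without strand, left out multimapping reads, and used Ensembl 83 genes (GRCh38). Multimapping reads from near-identical copies are thus missing.

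Symbols came from GENCODE 29. Genes were kept by edgeR's filterByExpr (at least 10 counts, total 15) and tested with edgeR's quasi-likelihood F-test (edgeR 4.0.16, R 4.3.3, TMM factors, two-sided, Benjamini-Hochberg over all genes): 17162 genes in the 9 LNCaP libraries, 16965 in the 9 C4-2 libraries, and 18684 in all 18 for interactions and lines. SE is the standard error of the log2FC, from the F statistic. CPM used TMM factors over all 18 libraries, and CPM per kilobase the exonic length in the files. Total counts set the precision, and the third C4-2 vehicle library was the shallowest. Intervals of count ratios were exact and cover counting error only. All members were eligible to be named, and at most 5 other genes per list and comparison, those with the smallest adjusted p. Steps were tested on simulated data. Alternatives were RLE factors, DESeq2 (1.42.0), other filters, thinning, GC trend removal, other sets of libraries, a replicate block and leaving out each library. The members and lists were chosen with earlier results of these data known. Promoters came from RefSeq (GRCh38.p14), and a search for a second motif in them is not reported here.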

Additional observations from a re-analysis of the deposited data

Results flagged for a closer look

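The response to R1881 differed between the lines by the interaction test for 12 of 25 transporter genes tested. Of these, 6 were higher and 6 lower in C4-2, beside 6.05% and 7.95% of all genes. As the difference of log2FC, C4-2 minus LNCaP, the values were 1.61 for SLC36A1, 1.29 for SLC7A2, 0.97 for SLC36A4, 0.63 for SLC7A5, 0.56 for SLC38A1 and 0.33 for SLC38A2. They were −3.17 for SLC7A13, −0.78 for SLC1A4, −0.69 for SLC7A8, −0.62 for SLC43A1, −0.55 for SLC1A5 and −0.49 for SLC7A11. SLC7A13 met the filter on low counts only in LNCaP libraries with R1881 and had to be higher there to be tested. After thinning, the calls on SLC1A4, SLC1A5, SLC7A5 and SLC36A4 were lost. Those on SLC38A2, SLC7A5, SLC7A11 and SLC7A13 were lost with certain single libraries left out. The response to dual knockdown differed for 5 genes, 4 higher and 1 lower in C4-2, beside 6.97% and 3.88% of all genes. The differences were 1.47 for SLC7A2, 0.68 for SLC1A4, 0.67 for SLC7A11, 0.43 for SLC38A1 and −0.51 for SLC43A2. The calls on SLC1A4 and SLC43A2 were lost after thinning and with certain single libraries left out.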

How the results depend on the processing

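Counts of members passing moved by over 1.5 times as follows. For dual knockdown in LNCaP, 1 member passed with the GC trend removed and 1 in the fit of all 18 libraries, against 5. Over all genes these gave 510 up and 491 down, and 527 up and 618 down, against 1420 up and 1011 down. For the difference in R1881 response, 7 passed after thinning, against 12. Over all genes thinning gave 640 higher and 728 lower of 13404 tested, against 1130 and 1485 of 18684. For the difference in knockdown response, 3 passed after thinning and 8 with the GC trend removed, against 5. Over all genes these gave 473 higher and 355 lower, and 1520 and 1118, against 1303 and 725. A filter of 10 counts in every library changed that split of all genes to 1144 and 972. Asking for a 2-fold change, which passes fewer genes by construction, left 5 and 5 (R1881 in LNCaP and C4-2), 0 and 1 (knockdown), 3 and 1 (differences in response), and 10 and 11 (lines with vehicle and R1881). The shares of all genes are given above for all but the differences in response. For these, 373 genes were higher and 435 lower (R1881), and 236 and 135 (knockdown), of 18684. With single libraries left out, 14 to 19 and 12 to 17 (R1881), 0 to 6 and 9 to 14 (knockdown), 9 to 13 and 3 to 8 (differences), and 18 to 20 and 20 to 21 (lines) passed. Over all genes, R1881 then gave 3645 to 4202 up and 3156 to 3782 down in LNCaP. In C4-2 it gave 2163 to 3448 and 1839 to 3170. Knockdown gave 510 to 1704 and 296 to 1234 in LNCaP, and 1356 to 2499 and 1126 to 2169 in C4-2. With a LNCaP library left out, 780 to 1077 genes had a higher R1881 response in C4-2 and 1189 to 1398 a lower one. For the knockdown response these were 911 to 1242 and 431 to 738. Between the lines with vehicle, the same fits gave 4961 to 5465 genes higher in C4-2 and 4943 to 5506 lower. With R1881 they gave 4823 to 5384 and 5085 to 5615. SLC38A2 between the lines with R1881 went from a log2FC of −0.0035 to 0.14 with the GC trend removed. Over single members and all alternatives, 3962 values kept a call in its direction or had no call in either fit. Signs of values without a call were not compared. A call was lost by 159 values and gained with the same sign by 48. The 1 value labelled reversed was that of SLC38A2 above, which had no call at first and gained one with the other sign. Causes were not tested, except where fewer libraries, genes or counts entered by construction.

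Libraries with the same number in a line had deviations correlated by −0.074 to 0.072 over genes, and those with different numbers by −0.080 to 0.079. With 3 libraries a group, this cannot tell whether the numbers pair the samples. Between the lines, correlations were −0.34 to 0.28 for the same number and −0.34 to 0.41 for different numbers. With the replicate number as a block, 17, 14, 5, 13, 12, 5, 19 and 21 members passed, in the order above. Over all genes R1881 then gave 3970 up and 3926 down in LNCaP, and 3078 and 2713 in C4-2. Knockdown gave 1580 and 966, and 2297 and 2025. Differences in response gave 1172 higher and 1571 lower (R1881), and 1415 and 944 (knockdown). The lines gave 5472 higher and 5541 lower in C4-2 with vehicle, and 5392 and 5577 with R1881. Depth limits SLC38A4, SLC7A13 and SLC1A2, and 4 members could not be tested.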
